A study of Mus musculus with 26 samples.

Results

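Uninduced endothelium of the J558L tumour was compared with uninduced kidney endothelium, taken as the 2 tumour and 3 kidney arrays that carry the J558L and 0 h labels, 5 of the 26 arrays of the series. J558L is a mouse plasmacytoma line, here in the form J558L-IFNγ-GFP-IND, which can be induced to release IFNγ-GFP. At 0 h it had not been induced. All hosts of both groups were female Rag-/- mice aged 4 to 6 months, which lack mature T cells and B cells and have the IFNγ receptor on all their cells. Endothelial cells were sorted as CD31+/CD146+ by flow cytometry, and their RNA was amplified with an Affymetrix WT Pico kit before array hybridisation. Tumours were about 1 cm wide. The labels do not say whether the arrays of a group came from separate mice, nor which kidney came from which tumour-bearing host, so p-values measure the spread between these arrays, which may be technical. Further sets are used beside them: the 3 tumour and 3 kidney arrays of J558L hosts after 24 h of IFNγ-GFP induction, and, as values only, 3 uninduced arrays of the tumour MCA313, grown in hosts that combine PIG, Pdgfb-Cre and IFNγ-del and have the IFNγ receptor on endothelial cells alone.

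The lining cells of blood vessels differ between organs. In kidney, endothelium serves filtration and reabsorption, and its cells are mostly quiescent. In a growing tumour, vessels sprout: tip cells lead, stalk cells behind them divide, and the basement membrane, a sheet of laminins, type IV collagen, nidogen and heparan sulfate proteoglycan, is remodelled. Arterial, venous and capillary endothelium are told apart by transcription factors and surface proteins, and NOTCH, WNT, TGF-β and BMP signals take part in these fates.

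The table holds log2 values of 65535 probe sets, nearly all of their genes lying on chromosomes 1, 10, 11, 12 and 13. Tumour and kidney arrays appear to have been normalized as separate sets: pairs of tumour arrays shared 2153 to 2650 exactly equal values, pairs of kidney arrays 1086 to 1570, and a tumour and a kidney array at most 2. Set and tissue therefore cannot be told apart, and levels were compared as percentile ranks, the place from 0 to 100 of a probe set among all probe sets of its own array, averaged over the probe sets of a gene. A difference below is tumour minus kidney in these percentile points, with its standard error, and rank 50 is the middle of the array. Spearman correlation over probe sets was 0.983 between the tumour arrays, 0.964 to 0.979 among the kidney arrays, with kidney replicate 1 in the lower pairs, and 0.919 to 0.939 across tissues. Ranks compress near the top: a gene close to rank 100 can gain few points.

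At 0 h, 955 of 5109 genes, 18.7%, passed the test (limma, Benjamini-Hochberg adjusted p under 0.05). Of these, 489 ranked higher in tumour endothelium (9.57% of all genes) and 466 lower (9.12%). A difference of at least 20 points was reached by 70 of the higher and 84 of the lower genes. Without tumour replicate 1 the count was 473, without tumour replicate 2 it was 269 higher and 289 lower, and both tumour arrays are thus needed for many of the calls. Tumour and kidney arrays did not overlap in 2343 genes (45.9%), with tumour above in 1228 (24%) and below in 1115 (21.8%). The median difference over all genes was 0.14 points. Counts of list members below stand beside these shares of all genes: 18.7% in either direction, 9.57% higher and 9.12% lower. The lists were chosen with earlier results of these data known.

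The gene of the sort marker CD31 and general endothelial genes were high in both tissues. The gene of the other sort marker, CD146, was not among those measured. Pecam1, which encodes CD31, had ranks of 91.9 and 93.7 in tumour, against 90.4, 92.3 and 92.7 in kidney. Cd34 ranked 93.4 and 92.4 in tumour and 90.8, 92.6 and 92.5 in kidney. Neither gene passed the test, and their arrays overlapped (differences 0.98 ± 1.45 and 0.93 ± 1.21). Of 7 endothelial markers measured, none ranked higher in tumour and 2 ranked lower, with a list median of -0.90 points. These were Sox17, a transcription factor of arterial endothelium (-8.74 ± 1.37, adjusted p = 0.00159), and Ptprb, the endothelial phosphatase VE-PTP (-4.57 ± 1.27, adjusted p = 0.0306, which became 0.234 without tumour replicate 2, 0.0638 without kidney replicate 1 and 0.0531 without kidney replicate 3). Ifngr1, a chain of the IFNγ receptor, ranked 91.4 and 90.6 in tumour, against 89.2, 87.7 and 89.4 in kidney, and Ifng itself lay at 21.7 and 22.7 in tumour and 27.0, 20.4 and 21.2 in kidney; neither passed.

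Genes of other cell types that a sort could carry were read the same way. None of 7 genes of kidney epithelium and podocytes passed, and their mean rank was 28.7 and 29.6 on the tumour arrays and 29.6, 29.7 and 30.8 on the kidney arrays, below the middle of each array. Of 6 other genes abundant in kidney tubules, chosen after their values were seen, 5 were lower in tumour, namely Cd24a (-45.7), Chchd10 (-35.3), Atp1b1 (-30.4), Cpm (-22.0) and Tmigd1 (-21.8), and the part of tubule RNA in the kidney values was not tested. Among 11 plasma cell and B lineage genes, which the tumour cells themselves could supply, 1 passed: Prdm1, the plasma cell regulator Blimp-1, also expressed outside that lineage, at 79.9 and 79.2 in tumour and 68.5, 67.0 and 68.2 in kidney (11.7 ± 1.64, adjusted p = 0.000795). The mean rank of these 11 genes was 41.4 and 42.3 in tumour and 41.8, 40.4 and 40.1 in kidney, and the plasma cell surface gene Sdc1 lay at 56.8 and 51.1 in tumour, against 55.9, 55.9 and 53.8 in kidney. Neither of 2 erythroid genes, Slc4a1 and Sptb, passed. Ptprc, which encodes the pan-leukocyte antigen CD45, had ranks of 36.7 and 32.6 in tumour and 35.7, 31.3 and 31.7 in kidney. Among 19 genes of other leukocytes, Fcgr3 ranked higher in tumour (8.47 ± 2.01), and Itgb2, Prf1 and Xcl1 ranked lower (-14.7, -20.4 and -25.1). The share of this list that passed, 21.1%, was near the 18.7% of all genes. Only Prf1, which encodes perforin, passed whichever array was left out: the adjusted p of Fcgr3 was 0.127 without tumour replicate 2, that of Itgb2 0.0805 without tumour replicate 1, and that of Xcl1 0.0567 to 0.119 without either tumour array or without kidney replicate 1 or 2.

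Mural cells and fibroblasts stood out among these lists, with 4 of 8 genes lower in tumour, 1 higher and a median of -8.29 points. Rgs5, a marker of pericytes, ranked 60.9 and 50.4 in tumour and 75.5, 75.7 and 70.8 in kidney (-18.3 ± 2.77, adjusted p = 0.00131). Des, which encodes desmin, stood at 42.8 and 36.1 in tumour and 59.5, 59.3 and 51.6 in kidney (-17.4 ± 3.22, adjusted p = 0.0041). Col1a1, a collagen of fibroblasts, went the other way, at 64.5 and 59.9 in tumour and 47.8, 46.5 and 45.0 in kidney (15.8 ± 2.80, adjusted p = 0.00321). Without tumour replicate 2 the number of falls was 2, and Des had an adjusted p of 0.0516. The mean rank over all 8 genes was 39.0 on both tumour arrays and 42.8 to 47.5 on the kidney arrays. The part of such cells in the differences below was not tested. In bulk samples, fewer cells of a type and less RNA per cell cannot be told apart.

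The largest rises toward tumour endothelium covered a growth factor, secretory granule genes, a chemokine and cell division genes. Pgf, placental growth factor, a ligand of the VEGF receptor Flt1, had ranks of 94.0 and 96.8 in tumour, against 53.7, 60.1 and 50.6 in kidney (40.6 ± 3.99, adjusted p = 9.1e-05), or 4.78 on the log2 scale after joint quantile normalization. Krt20, an epithelial keratin, stood at 76.1 and 73.2 in tumour and 31.9, 29.6 and 25.3 in kidney (45.7 ± 3.12, adjusted p = 8.3e-06). Chga, which encodes chromogranin A of dense-core granules, ranked 80.1 and 78.3 in tumour and 37.4, 36.0 and 42.7 in kidney (40.5 ± 2.18, adjusted p = 1.72e-06). All probe sets of each of these genes were higher in tumour. The choice of the largest differences itself required groups that do not overlap and at least 2 in 3 probe sets in the direction of the gene.

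Ptprn, a receptor-type phosphatase of the same granules, had ranks of 71.1 and 75.3 in tumour, against 33.6, 29.2 and 35.9 in kidney (40.3 ± 2.81). Of 5 granule genes measured, chosen after their values were seen, 3 ranked higher. Ptprn2 and Scg2 did not pass (0.05 and -1.91 points). Nts was higher (28.1 ± 7.06), with an adjusted p of 0.051 without kidney replicate 1 and 0.0549 without kidney replicate 3. It also lost its call without tumour replicate 1 (26.0 points) and without tumour replicate 2 (30.2 points). Raet1e, a ligand of the NK cell receptor NKG2D, stood at 86.4 and 83.3 in tumour and 57.9, 32.7 and 32.3 in kidney (43.9 ± 6.11, adjusted p = 0.000778), kidney replicate 1 lying above the other kidney arrays. Ccl8, a chemokine, ranked 63.9 and 58.9 in tumour and 17.6, 16.5 and 13.3 in kidney (45.6 ± 7.48, adjusted p = 0.00207). Ccl8 was also low in uninduced MCA313 tumour endothelium, at 16.6, 18.3 and 15.8, whereas Pgf (95.6, 97.0 and 97.9), Raet1e (86.2, 86.1 and 85.2) and Chga (67.7, 83.5 and 85.5) were high there. Mgat4a, a glycosyltransferase of N-glycan branching (37.4 ± 6.48), and the unnamed gene 9230102K24Rik (46.7 ± 1.73) completed the group with Birc5, Cdk1 and Top2a, described below. Ugt1a7c, a glucuronosyltransferase that shares exons with its family, had an adjusted p of 0.0149 that became 0.14 without tumour replicate 1.

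The largest falls exceeded the largest rises. Scin, which encodes the actin-severing protein scinderin, ranked 29.2 and 27.7 in tumour and 86.8, 87.5 and 78.8 in kidney (-55.9 ± 2.76, adjusted p = 1.29e-06; -5.22 on the log2 scale). Ntn4, netrin-4, a laminin-related secreted protein, had ranks of 27.3 and 36.6 in tumour and 80.9, 83.0 and 83.8 in kidney (-50.6 ± 2.58, adjusted p = 1.42e-06). Serpine2, which encodes the protease inhibitor nexin-1, stood at 39.8 and 37.2 in tumour, against 85.1, 88.2 and 87.0 in kidney (-48.3 ± 2.17, adjusted p = 8.9e-07). All 3 passed whichever array was left out. Scin and Ntn4 were low in MCA313 too (27.1, 27.1 and 34.5 for Scin), but Serpine2 had ranks of 57.3, 71.8 and 82.3 in MCA313.

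Cd24a, a surface glycoprotein gene active in many epithelia, ranked 28.9 and 31.7 in tumour, against 75.05, 76.9 and 75.9 in kidney (-45.7 ± 2.10). Atp2a3, a calcium pump of the endoplasmic reticulum, stood at 46.6 and 39.5 in tumour and 85.2, 86.7 and 87.7 in kidney (-43.5 ± 2.16). Tmem26, a membrane protein gene, ranked 56.6 and 45.7 in tumour and 88.2, 85.9 and 88.3 in kidney (-36.3 ± 2.74). Crispld1 (-40.9 ± 3.23), Sgpp2, a sphingosine-1-phosphate phosphatase (-36.7 ± 2.96), Lgr5, an R-spondin receptor (-35.8 ± 4.16), and the odorant receptor gene Olfr1396 (-41.9 ± 1.59) were further members, besides Igfbp5 and Hey2 described next. Olfr1396 lay near the array middle in kidney, at 51.6, 50.9 and 53.3, and at 10.3 and 9.73 in tumour.

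**Figure D1:**
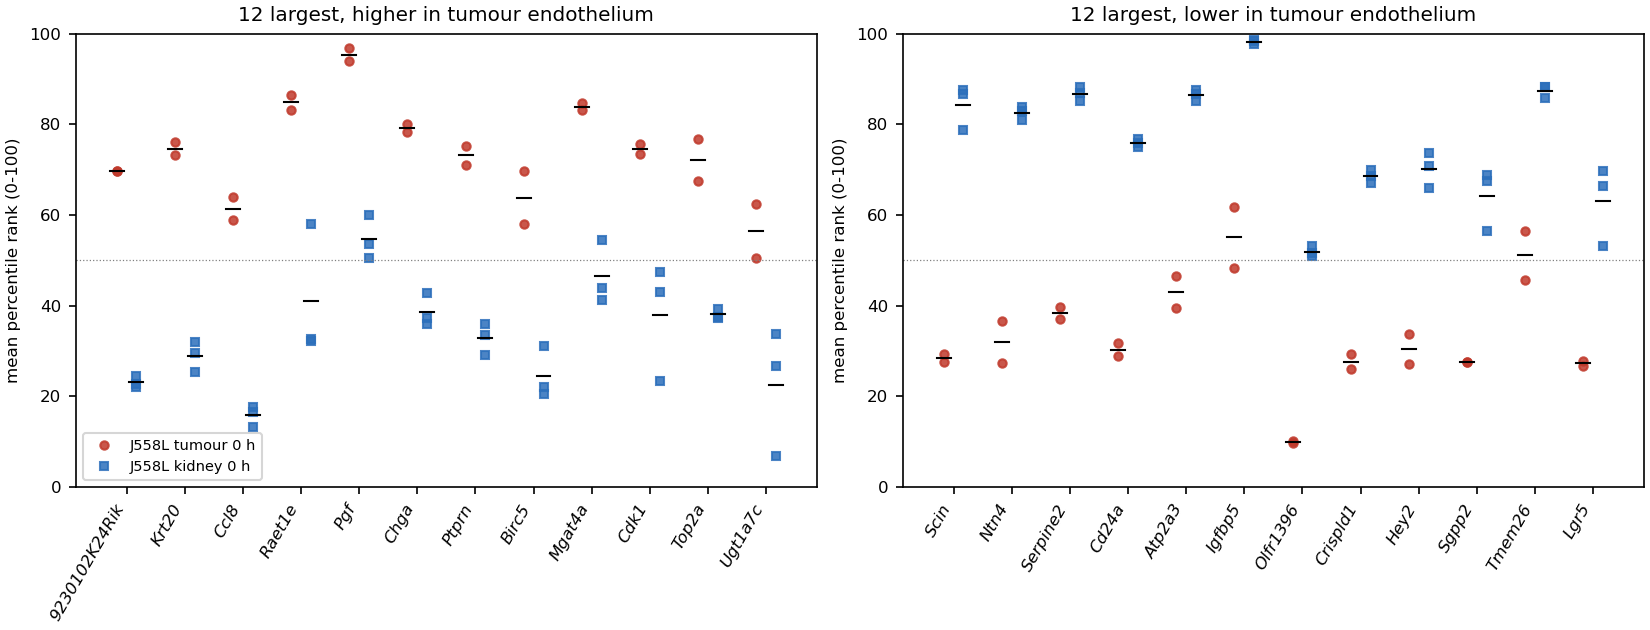
Mean percentile rank of each gene on each array (vertical axis, 0 to 100) for the 12 largest differences in each direction. Circles are the 2 tumour arrays, squares the 3 kidney arrays, short lines group means, and the dotted line the middle of the array; genes were chosen for groups that do not overlap, and Igfbp5 is the highest kidney gene, near 98.

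Genes of kidney endothelium were lower in tumour: 7 of 9 measured members fell (77.8% passed, against 18.7% of all genes), none rose, and the list median was -18.2 points. The tubule-rich genes Cd24a, Chchd10 and Atp1b1 were lower in tumour as well (-45.7, -35.3 and -30.4 points), and their part in this result was not tested. Igfbp5, which binds insulin-like growth factors, had ranks of 48.4 and 61.8 in tumour, against 97.7, 98.4 and 98.6 in kidney (-43.1 ± 3.17, adjusted p = 1.17e-05; -5.54 on the log2 scale). Igf1, the growth factor itself, ranked 37.5 and 42.5 in tumour and 64.1, 64.4 and 60.4 in kidney (-22.9 ± 3.13, adjusted p = 0.0007). Meis1, a homeobox transcription factor, stood at 39.7 and 35.3 in tumour and 66.8, 74.9 and 70.5 in kidney (-33.3 ± 2.90, adjusted p = 4.11e-05). Mapt, Dram1, Sost and Tbx2 were the other members that fell (-21.5, -18.2, -12.3 and -10.6 points), and Hoxb7 and Hoxb8 did not pass (0.35 and -2.08). Tbx2 lost its call without tumour replicate 1 (adjusted p = 0.0666), without tumour replicate 2 (0.132) or without kidney replicate 3 (0.0552), and with the brightest probe sets the list held 4 falls. Meis1 was low in MCA313 as well, at 26.9, 33.3 and 35.2. In the HOXB cluster, whose genes carry positional identity, Hoxb3 and Hoxb9 were lower in tumour and 8 of 10 members did not pass. The share that passed, 20%, was near the 18.7% of all genes.

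Arterial genes were lower in tumour too, with 5 of 8 falling, 1 rising and a median of -11.8 points (75% passed, against 18.7% of all genes). Hey2, a NOTCH target that specifies arterial fate, ranked 33.7 and 27.1 in tumour and 65.9, 73.6 and 70.9 in kidney (-39.7 ± 2.49, adjusted p = 4.87e-06). Fbln5, which encodes the elastic fibre protein fibulin-5, stood at 80.2 and 84.4 in tumour, against 98.1, 96.5 and 96.8 in kidney (-14.8 ± 1.63, adjusted p = 0.000189). Alox12, a lipoxygenase, and Ptprr, a phosphatase, fell (-21.3 and -14.8 points). Unc5b, a netrin receptor found in arteries and in tip cells, was the member that rose (8.28 ± 2.42, adjusted p = 0.0374), but its adjusted p was 0.176 without tumour replicate 1, 0.133 without tumour replicate 2, 0.0946 without kidney replicate 1 and 0.0702 without kidney replicate 3.

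Capillary genes split. Car4, a carbonic anhydrase on the capillary surface, had ranks of 89.4 and 89.6 in tumour, against 58.8, 74.2 and 66.6 in kidney (23.0 ± 4.54, adjusted p = 0.00587), and Meox2, a homeobox factor of vessels, 70.5 and 65.8 in tumour and 37.0, 42.2 and 40.5 in kidney (28.3 ± 3.59, adjusted p = 0.000456). The other way, Fmo1, a flavin monooxygenase, stood at 39.5 and 37.9 in tumour and 68.2, 72.7 and 72.1 in kidney (-32.3 ± 2.14, adjusted p = 7.45e-06). In all, 2 of 9 capillary genes rose and 6 fell (median -9.84 points); without tumour replicate 1 the falling count was 2. Cd300lg, a mucin-like receptor of capillary endothelium, was among those that fell (-10.2 ± 1.77).

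Of 11 venous and activation genes 2 passed, 1 in each direction (18.2%, against 18.7% of all genes). Differences were above 0 for 10 of the 11, against 2612 of all 5109 genes. Ccl2, a monocyte chemokine, ranked 79.7 and 84.4 in tumour and 72.8, 62.5 and 65.9 in kidney (14.97 ± 3.12, adjusted p = 0.00766, and 0.0768 without tumour replicate 2). Ptgs2, cyclooxygenase-2, went down, at 46.6 and 41.3 in tumour and 76.7, 78.9 and 70.2 in kidney (-31.3 ± 5.57, adjusted p = 0.00324). The selectin genes Sele and Selp, which mediate leukocyte rolling, did not pass (0.098 and 4.83 points).

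**Figure D2:**
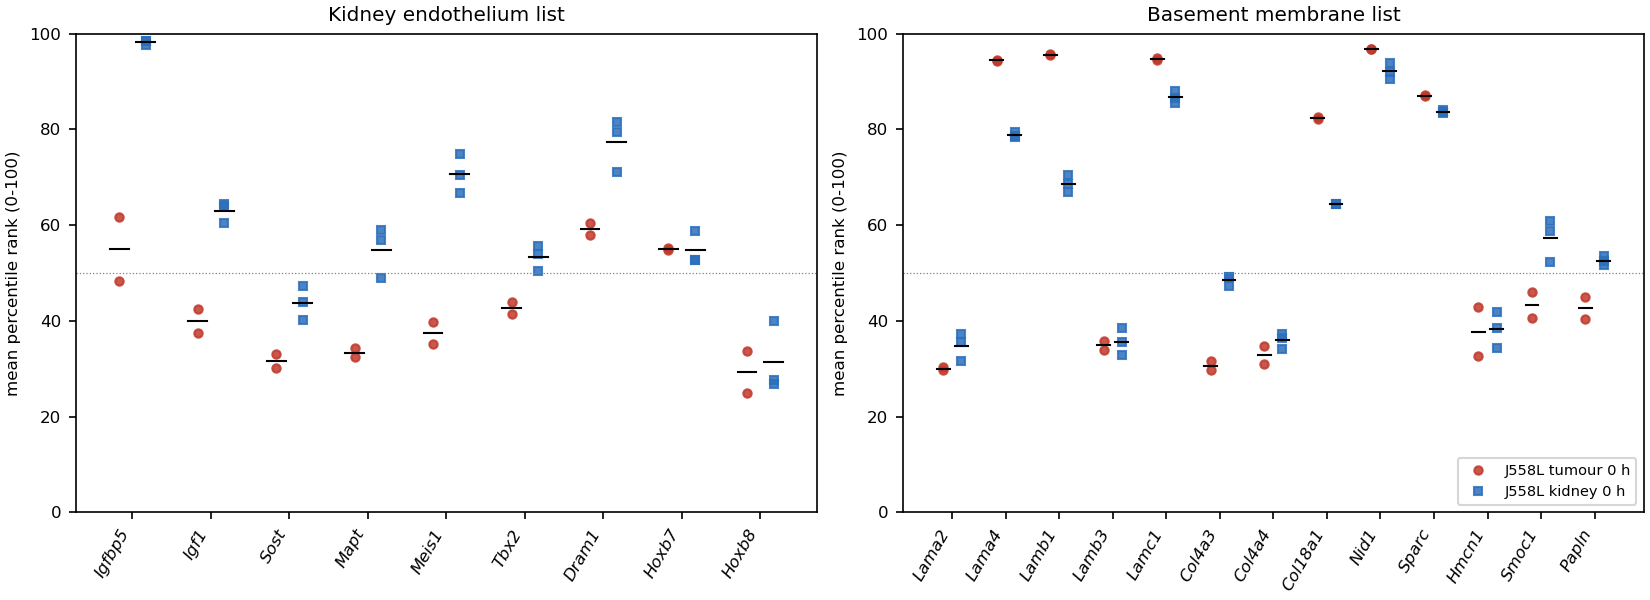
Mean percentile rank on each array (vertical axis, 0 to 100) for all measured members of the kidney endothelium list (left) and the basement membrane list (right). Circles are the 2 tumour arrays and squares the 3 kidney arrays, lines are group means and the dotted line is rank 50; Igfbp5, Meis1 and Igf1 lie lower in tumour and Lamb1, Lama4 and Col18a1 higher.

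Genes of the laminin chains α4, β1 and γ1, which can assemble into laminin-411, a laminin of endothelium, ranked higher in tumour together. Lamb1, the β1 chain, had ranks of 95.5 and 95.7 in tumour, against 66.9, 68.5 and 70.4 in kidney (27.0 ± 1.70, adjusted p = 4.87e-06; 3.77 on the log2 scale). Lama4, the α4 chain, stood at 94.6 and 94.4 in tumour and 78.7, 79.4 and 78.4 in kidney (15.7 ± 1.63, adjusted p = 0.00013). Lamc1, the γ1 chain, ranked 94.9 and 94.5 in tumour and 85.5, 86.6 and 88.0 in kidney (8.01 ± 1.36, adjusted p = 0.00249). All probe sets of these 3 genes, 33, 37 and 25, were higher in tumour. With the brightest probe set alone, which lies near the top of the array, Lamb1 still passed (7.88 points), but Lamc1 (1.47 points) and Lama4 did not (Lama4 2.40 points, with 99.8 and 99.8 in tumour and 98.4, 96.9 and 96.9 in kidney). MCA313 arrays had ranks of 95.5, 95.5 and 96.0 for Lamb1.

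Col18a1, which encodes collagen XVIII, the source of endostatin, ranked 82.1 and 82.5 in tumour and 64.4, 64.4 and 64.5 in kidney (17.9 ± 2.19, adjusted p = 0.000359). Nid1, nidogen-1, also rose (4.69 points), with an adjusted p of 0.0519 to 0.155 when any of 7 arrays was left out. Against these, Col4a3, a type IV collagen chain of mature glomerular basement membrane, fell, at 31.6 and 29.7 in tumour and 49.1, 47.3 and 49.1 in kidney (-17.9 ± 1.85, adjusted p = 0.00013), a difference of 1.65 points with the brightest probe set. Of the 13 basement membrane genes 5 rose and 2 fell, and the median was -0.56 points; with the brightest probe sets 1 rose and none fell. Papln was the other gene that fell (-9.90 points), with an adjusted p of 0.166 without tumour replicate 1. In the interstitial matrix, Fn1, fibronectin, had ranks of 93.2 and 96.4 in tumour and 81.2, 80.3 and 84.5 in kidney (12.8 ± 1.88, adjusted p = 0.00112), while Prelp, a leucine-rich proteoglycan that anchors matrix, ranked 50.5 and 44.5 in tumour and 74.0, 73.6 and 72.8 in kidney (-26.0 ± 1.85). Of 16 interstitial genes 2 rose, 3 fell and 11 did not pass. Among 11 remodelling genes, the proteinase gene Mmp11 fell (-28.5 points), the inhibitor genes Timp2 and Timp3 fell (-12.4 and -7.54 points), and the metalloproteinase genes Adam19 and Adamts4 rose (19.2 and 7.90 points). Timp2 lost its call without tumour replicate 1 (adjusted p = 0.115), without tumour replicate 2 (0.115), without kidney replicate 1 (0.0633) or without kidney replicate 2 (0.0524).

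Of 15 tip cell and sprouting genes, 8 rose and 2 fell, with a median of 5.68 points against 0.14 over all genes. Vash1, which encodes the angiogenesis inhibitor vasohibin-1, had ranks of 89.2 and 90.7 in tumour, against 61.3, 57.8 and 54.0 in kidney (32.3 ± 2.35, adjusted p = 1.14e-05). Besides Vash1, Pgf, Lama4, Col18a1, Nid1 and Unc5b, the chemokine receptor genes Cxcr4 and Ackr3 rose (11.4 and 7.50 points); the adjusted p of Ackr3 was 0.0501 to 0.259 when any of 5 arrays was left out. Ramp3, a partner of the adrenomedullin receptor, fell, at 46.7 and 51.1 in tumour and 74.6, 76.8 and 79.9 in kidney (-28.2 ± 2.26, adjusted p = 2e-05), whereas MCA313 had 70.3, 73.0 and 74.9. The number of rises was 5 without tumour replicate 1, without tumour replicate 2 or without kidney replicate 1.

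Plxdc1, known as tumour endothelial marker 7, gave opposite answers by probe set. Its mean over 17 probe sets was 30.3 and 30.1 in tumour and 37.3, 46.5 and 37.2 in kidney (-10.2 ± 2.66, adjusted p = 0.0238). The call was lost without tumour replicate 1 (adjusted p = 0.12) and without tumour replicate 2 (0.113). Its brightest probe set had ranks of 79.96 and 79.5 in tumour, against 41.5, 44.4 and 49.7 in kidney (34.5 ± 4.11, adjusted p = 0.00162). The direction for Plxdc1 therefore depends on how its probe sets are summarised.

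Guidance genes, named from neurons and active in vessels, moved in both directions, 2 higher and 3 lower of 11. Slit3, a secreted Roundabout ligand, ranked 40.4 and 38.9 in tumour and 72.4, 69.8 and 71.5 in kidney (-31.6 ± 1.66, adjusted p = 1.58e-06). Epha4, an ephrin receptor, stood at 55.0 and 54.6 in tumour, against 73.5, 85.3 and 80.7 in kidney (-25.0 ± 3.69, adjusted p = 0.00112). With Ntn4 these were the guidance genes that fell; Unc5b and Srgap1 were those that rose, and Srgap1 lost its call without tumour replicate 1 (adjusted p = 0.133), without tumour replicate 2 (0.157), without kidney replicate 2 (0.0911), without kidney replicate 3 (0.0912) or without tumour replicate 1 of 24 h (0.0501).

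Cell division genes formed the clearest group: 13 of 16 rose, 1 fell, and the median was 19.9 points. Top2a, topoisomerase II of dividing cells, had ranks of 76.7 and 67.6 in tumour, against 37.5, 37.3 and 39.4 in kidney (34.1 ± 2.68, adjusted p = 1.83e-05). Cdk1, the kinase that drives entry into mitosis, stood at 75.8 and 73.5 in tumour and 23.4, 47.4 and 43.0 in kidney (36.7 ± 5.57, adjusted p = 0.00135). Birc5, survivin, ranked 69.6 and 58.0 in tumour and 20.5, 31.0 and 22.0 in kidney (39.3 ± 3.95, adjusted p = 0.000108). Tumour replicate 1 was the higher of the tumour arrays for each of them. Aurkb, a mitotic kinase, rose by 28.9 ± 2.55 points. Hmmr, Nuf2, Spag5, Kif18b, Gas2l3, Aspm, Nek2, Ube2t and Cenpf also rose, by 15.7 to 26.7 points, and Fbxo5 and Kif14 did not pass; of these rises Gas2l3 lost its call when tumour replicate 1 was left out (adjusted p = 0.0805), and 12 to 14 genes rose whichever array was left out. Pttg1, securin, was the one that fell, at 66.6 and 65.3 in tumour and 77.1, 78.8 and 75.2 in kidney (-11.0 ± 1.68, adjusted p = 0.00137). MCA313 arrays ranked Top2a at 67.8, 63.0 and 68.3 and Pttg1 at 65.9, 67.2 and 67.5.

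DNA replication genes went with them, 7 of 13 rising and none falling, with a median of 11.8 points. Cdc6, which loads the replicative helicase, ranked 63.6 and 54.2 in tumour and 23.1, 31.2 and 33.6 in kidney (29.6 ± 4.32, adjusted p = 0.00105). Dtl, a substrate receptor of an S-phase ubiquitin ligase, had ranks of 69.6 and 61.8 in tumour and 37.2, 39.8 and 31.4 in kidney (29.6 ± 3.00, adjusted p = 0.000116). Exo1, Rrm2, Mcm6, Brca1 and Tk1 were the other genes that rose (11.8 to 26.3 points), Brca1 having an adjusted p of 0.0584 without tumour replicate 1. These calls rest on the mean over probe sets: with the brightest probe set of each gene, 2 cell division genes and 1 replication gene ranked higher past the test. The brightest probe set of Top2a lay at 99.4 and 98.5 in tumour and 87.4, 85.4 and 92.5 in kidney, where ranks compress (10.5 ± 4.51, adjusted p = 0.176), and that of Rrm2 turned to -2.76 points.

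Promoters of these genes are shown because mitotic genes share short elements upstream of their start. From RefSeq (GRCm38.p6), 300 bases on the gene's strand were read for 4040 of the 5109 genes. Capitals mark TTTGAA, the letters of a cell cycle homology region, CCAAT, the box bound by NF-Y, and, in Cdc6, TTCCCGC, an E2F-type motif, each on either strand; matches of different motifs could share end letters. Promoters are Top2a (chr11:99024140-99024439, minus strand), Cdk1 (chr10:69352863-69353162, minus strand), Hmmr (chr11:40733388-40733687, minus strand) and Cdc6 (chr11:98907901-98908200, plus strand).
Top2a: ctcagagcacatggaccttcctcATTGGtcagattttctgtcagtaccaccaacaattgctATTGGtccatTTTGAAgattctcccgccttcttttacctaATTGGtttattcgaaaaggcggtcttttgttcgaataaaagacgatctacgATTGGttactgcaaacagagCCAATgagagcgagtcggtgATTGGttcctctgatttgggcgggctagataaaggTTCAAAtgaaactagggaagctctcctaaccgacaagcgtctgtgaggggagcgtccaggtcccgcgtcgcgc
Cdk1: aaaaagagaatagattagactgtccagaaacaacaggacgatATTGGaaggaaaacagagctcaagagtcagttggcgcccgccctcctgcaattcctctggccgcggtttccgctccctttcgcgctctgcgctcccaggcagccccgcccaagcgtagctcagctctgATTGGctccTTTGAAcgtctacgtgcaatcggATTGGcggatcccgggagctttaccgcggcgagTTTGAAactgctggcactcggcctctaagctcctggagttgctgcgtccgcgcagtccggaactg
Hmmr: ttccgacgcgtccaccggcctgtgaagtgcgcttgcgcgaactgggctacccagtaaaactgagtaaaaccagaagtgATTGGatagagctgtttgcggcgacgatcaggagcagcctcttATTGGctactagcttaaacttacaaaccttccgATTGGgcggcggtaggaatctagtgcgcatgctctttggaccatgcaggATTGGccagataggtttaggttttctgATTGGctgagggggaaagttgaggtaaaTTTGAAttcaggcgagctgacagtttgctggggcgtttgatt
Cdc6: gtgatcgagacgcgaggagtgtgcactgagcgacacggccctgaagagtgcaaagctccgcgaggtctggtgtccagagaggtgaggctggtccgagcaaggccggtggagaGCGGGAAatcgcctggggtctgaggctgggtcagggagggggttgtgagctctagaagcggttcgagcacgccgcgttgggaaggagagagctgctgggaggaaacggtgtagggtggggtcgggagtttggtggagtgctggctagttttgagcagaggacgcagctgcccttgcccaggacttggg
TTTGAA was present in 7 of the 12 promoters read for the 13 cell division genes that rose (58.3%), against 15% of all 4040. CCAAT was present in 10 of those 12 (83.3%), against 37.7% of all. It was also in 4 of 6 promoters of the replication genes that rose (66.7%). TTCCCGC was found in 1 of the 12 (8.33%) and in 2 of 6 promoters of the replication genes that rose (33.3%), against 6.29% of all. The TTTGAA letters were in none of those 6 replication promoters. Top2a held 2 TTTGAA and 6 CCAAT matches. Birc5 and Nuf2, which also rose, held no match to any of these motifs. The printed promoters thus do not stand for all cell division genes that rose. A match describes the letters in the window and not a bound site.

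**Figure D3:**
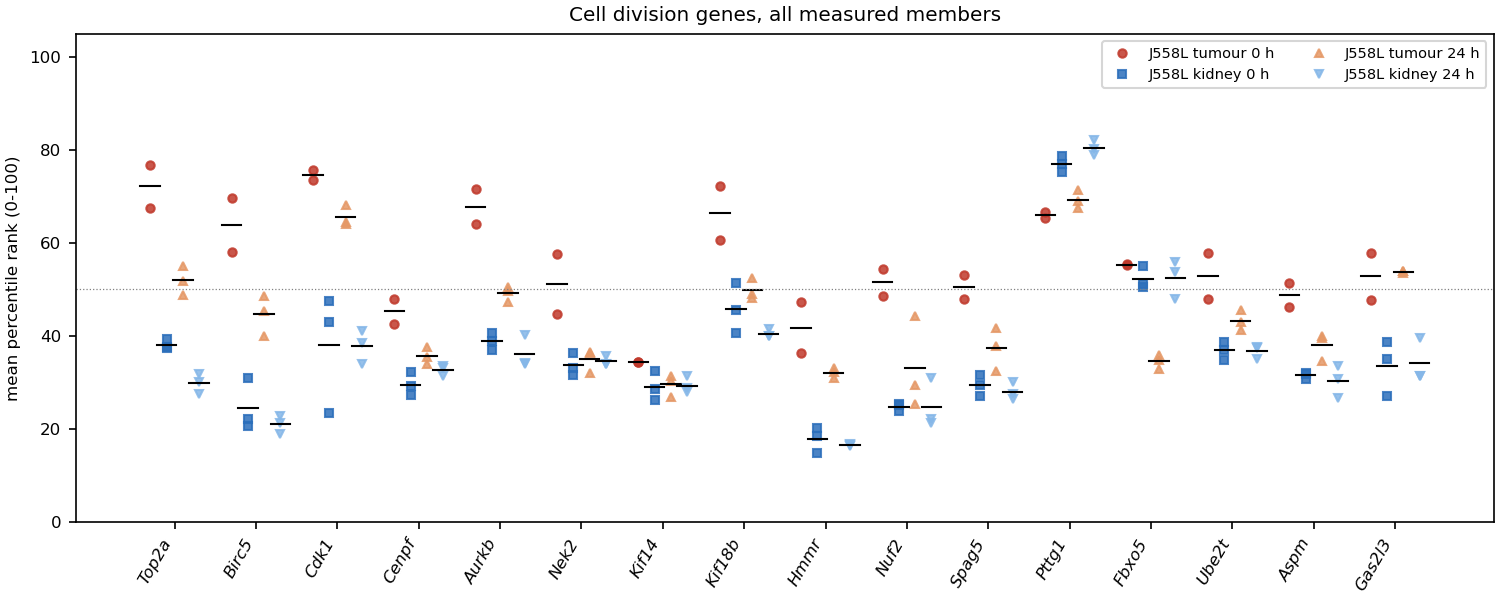
Mean percentile rank on each array (vertical axis, 0 to 100) for the 16 measured cell division genes in 4 groups: tumour at 0 h (circles), kidney at 0 h (squares), tumour at 24 h (upward triangles) and kidney at 24 h (downward triangles). Lines are group means and the dotted line is rank 50; Pttg1 alone fell at 0 h, and Top2a, Cdk1 and Birc5 show the widest gaps between tumour and kidney.

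Signalling genes that passed were lower in tumour with 1 exception, and 14 of 26 did not pass. Of 13 TGF-β and BMP genes 5 fell and 1 rose (median -4.45 points). The rise, of Gdf7, a BMP ligand gene (5.02 points), had an adjusted p of 0.0523 to 0.143 without either tumour array or without kidney replicate 1 or 3. Tgfb3, a TGF-β ligand, ranked 29.7 and 34.0 in tumour and 62.8, 64.4 and 65.9 in kidney (-32.5 ± 2.34, adjusted p = 1.08e-05). Bmp6, a BMP ligand of endothelium known from liver for control of iron, had ranks of 60.8 and 57.8 in tumour, against 82.0, 85.2 and 86.5 in kidney (-25.2 ± 3.15, adjusted p = 0.000404). Id2, a target of BMP signalling, and Tgfb2, another ligand gene, also fell (-14.96 and -19.5 points). Of 13 NOTCH and WNT genes 6 fell and none rose (median -8.16 points): besides Hey2, the NOTCH ligand gene Jag2 (-12.99 points), the WNT feedback gene Axin2 (-13.4), Dact1 (-18.9), Sost (-12.3) and the receptor gene Fzd7 (-8.38) fell. Fzd7 lost its call without tumour replicate 1 (adjusted p = 0.274), without kidney replicate 1 (0.0625) or without kidney replicate 2 (0.0565).

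Immediate early and stress genes, which respond within minutes to stimulation and to tissue dissociation, were lower in tumour in 7 of 12 cases, with 1 rise and a median of -7.06 points. In this list 66.7% passed, against 18.7% of all genes. Fos had ranks of 78.0 and 76.4 in tumour and 90.4, 88.3 and 87.1 in kidney (-11.4 ± 1.49, adjusted p = 0.000531). Rgs2, a regulator of G protein signalling, stood at 66.6 and 58.2 in tumour and 88.4, 89.7 and 83.6 in kidney (-24.9 ± 2.98, adjusted p = 0.000326). The count of falls was 3 without tumour replicate 1. What dissociation contributed was not tested.

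Hypoxia and glycolysis genes rose in 5 of 15 cases and fell in none (median 4.21 points). Pfkl, phosphofructokinase, ranked 77.8 and 75.4 in tumour and 62.1, 66.4 and 68.6 in kidney (10.9 ± 2.36, adjusted p = 0.00934). Mif, a cytokine gene also induced by low oxygen, stood at 96.6 and 95.7 in tumour, against 89.1, 90.2 and 89.8 in kidney (6.45 ± 1.42, adjusted p = 0.0103). The lactate transporter gene Slc16a3, Nos2 and Hif1a were the others. None of the 5 calls held without tumour replicate 1 and 3 genes rose without tumour replicate 2, while the list median was 4.70 points without tumour replicate 1 and 3.51 without tumour replicate 2. Without tumour replicate 1 the differences were 9.72 points for Pfkl, 16.4 for Nos2 and 5.95 for Mif. With the brightest probe set of each gene none of the 15 passed, and the list median was 0.124 points.

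Genes of the interferon response, the pathway that induction would later act on, passed in 7 of 31 cases (22.6%), near the 18.7% of all genes. Of these, 5 were lower and 2 higher, and the list median was -2.05 points. In normal scores and on the log2 scales 9 were lower and 2 higher. Ifi207 had ranks of 51.3 and 45.6 in tumour and 71.2, 64.5 and 59.2 in kidney (-16.6 ± 3.27, adjusted p = 0.00587, and 0.0652 without tumour replicate 2). Slfn5 ranked 82.1 and 80.5 in tumour, against 89.2, 87.1 and 86.9 in kidney (-6.45 ± 1.35, adjusted p = 0.00774, and 0.0739 without tumour replicate 2). Irgm1, Ifi203 and Slfn2 were also lower, and none of the 3 passed without tumour replicate 1 (adjusted p = 0.157, 0.0691 and 0.0664); the number of falls was 2 without tumour replicate 1 and 1 without tumour replicate 2. Ifi209 and Slfn9 were higher, by 18.2 and 16.8 points, and lost their calls without tumour replicate 1 (adjusted p = 0.114 and 0.155). Ifi209 also lost it without 6 other arrays in turn (adjusted p = 0.0558 to 0.229). Both families hold near-identical copies, so probe sets may read more than one gene. The transcription factor gene Irf1 did not pass (-2.56). Ribosomal protein genes passed in 20% of cases, near the 18.7% of all genes. Of 15 ribosomal protein genes, 3 rose and none fell (median 2.51 points); the number of rises was 0 without tumour replicate 1 and 1 without tumour replicate 2.

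**Figure D4:**
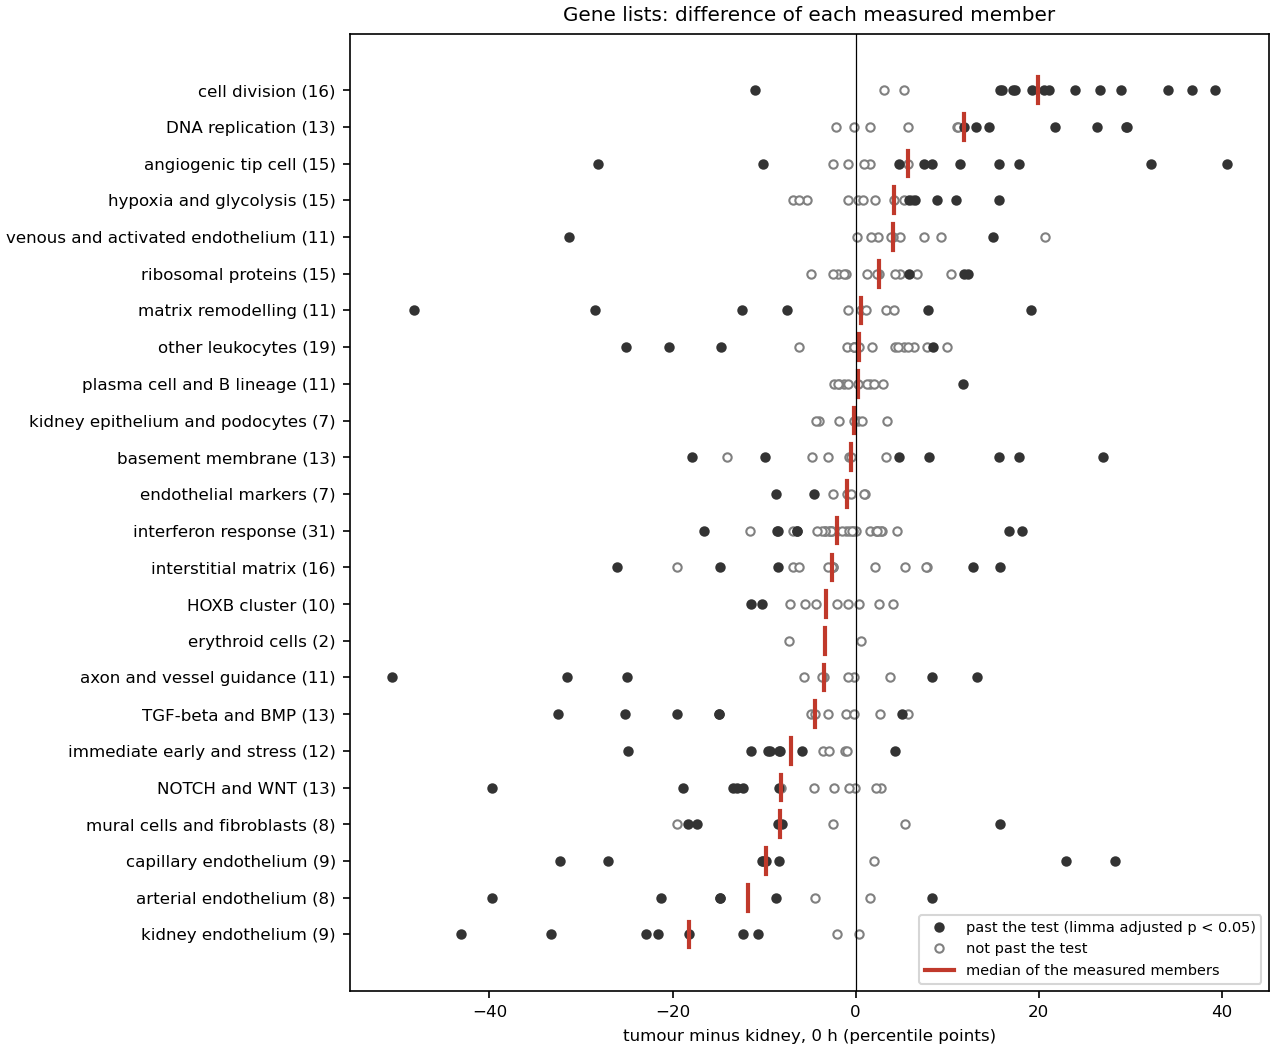
Difference of each measured member of 24 gene lists, tumour minus kidney at 0 h in percentile points (horizontal axis). Filled points passed the test, open points did not, red bars are list medians and the number measured is in brackets; cell division has the highest median, 19.9, and kidney endothelium the lowest, -18.2, against 0.14 over all genes.

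The 24 h arrays gave the same tissue comparison after induction, in arrays that give no 0 h value. They share the normalization sets, and, since 1 fit covered all 11 arrays, the spread of each gene, so calls at 0 h and at 24 h are not independent. There, 968 genes passed (18.9%), 486 higher (9.51%) and 482 lower (9.43%). Of the 489 genes higher at 0 h, 461 (94.3%) had a difference above 0 at 24 h, as did 51.9% of all genes, and 289 passed in the same direction (59.1% of the 0 h calls and 59.5% of the 24 h calls). Of the 466 lower genes, 456 (97.9%) were below 0 at 24 h, as were 48.1% of all genes, and 311 passed (66.7% of the 0 h calls and 64.5% of the 24 h calls). In each direction 1 gene passed with the opposite sign.

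Scin had a difference of -57.7 points at 24 h, Ntn4 -48.3, Igfbp5 -41.0 and Hey2 -39.8. Chga had 52.6 points, Raet1e 48.5, Pgf 37.9 and Lamb1 35.1. Other differences were smaller at 24 h: 25.01 points for Krt20 and 30.2 for Ccl8, -2.40 for Col4a3 and 0.26 for Des, and the median of the mural cell and fibroblast list was -0.62. The cell division list had a median of 8.82 points at 24 h with 8 genes higher and 2 lower, and the replication list 4.55 points with 3 higher and 2 lower; Top2a had 22.2 points and Birc5 23.6. The test of the change in tissue difference from 0 h to 24 h called 7 of 5109 genes (0.137%). Top2a (adjusted p = 0.317) and Birc5 (0.395) were not among them, nor were Krt20 (0.106), Ccl8 (0.74), Col4a3 (0.0514) and Des (0.198).

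**Figure D5:**
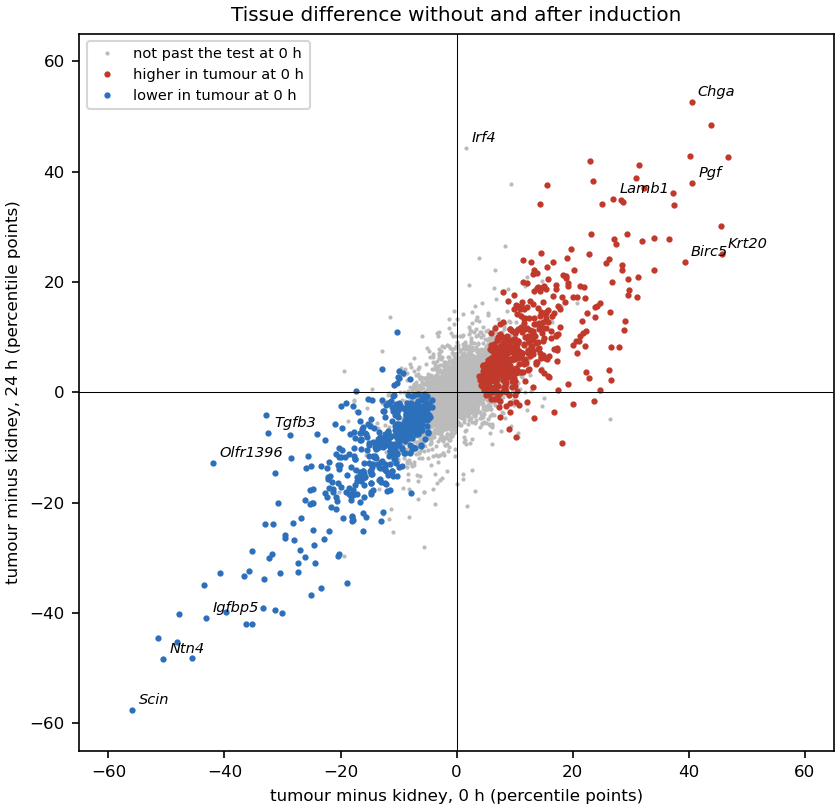
Tumour minus kidney difference of each gene in percentile points at 0 h (horizontal axis) and at 24 h (vertical axis), over 5109 genes. Red and blue points passed the test at 0 h as higher and lower in tumour, grey points did not; most coloured points keep their sign, Scin and Chga sit at the far ends, and Irf4 has a difference near 0 at 0 h and of 44.3 at 24 h.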

How the data were processed

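Endothelial RNA was measured on Affymetrix arrays. The values used are log2 expression values of probe sets, deposited by the authors as a table of 65535 probe sets and 26 arrays; the submitters' processing notes name Affymetrix Expression Console and limma, without versions, and no source used here gives the normalization. Probe sets were named from the platform annotation: 53857 had 1 gene symbol, 766 several and 10912 none, and only the first were used. Of 5120 symbols 4618 were current in RefSeq (GRCm38.p6), 494 were updated as synonyms and 8 had no match, giving 5109 genes with a median of 9 probe sets. No depth exists for arrays, so their number limits the precision.

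Each value was replaced by its percentile rank within its array, averaged per gene. Limma 3.58.1 (R 4.3.3) was fitted to the 11 J558L arrays as 4 group means, with a shared spread, no filter and a two-sided moderated test adjusted by Benjamini-Hochberg over all genes (threshold 0.05). On simulated data with 50 genes changed at each size, the 0 h comparison recovered 12% at 5 points, 52% at 10, 78% at 15 and 100% at 20, over 5109 genes; 4.72% of the called genes were unchanged. Log2 differences come from joint quantile normalization of the 11 arrays, averaged over the probe sets of each gene.

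Genes named are the 12 largest differences in each direction among genes past the test with at least 3 probe sets, at least 2 in 3 of them in the direction of the gene, no overlap between the tissues at 0 h and a mean rank of at least 50 in the higher group, then up to 4 members of each list in each direction, and check genes, some of which were not analysed here. The comparison, the 24 lists and these rules were chosen with earlier results of these data known. Further list members named in a clause, and the genes of the closing observations, were chosen after their values were seen. Counts of lists stand in for list tests. Same-numbered tumour and kidney arrays did not deviate together (correlations of -0.085 to 0.032), and replicate numbers were not used as a block in the main fit. With so few arrays per group, these correlations cannot show whether a host was shared. Alternatives were the 0 h arrays alone, a filter on rank, other probe-set summaries, other scales, another variance prior, array weights, the replicate block and leaving out each array.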

Additional observations from a re-analysis of the deposited data

Results flagged for a closer look

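A test of whether the tumour minus kidney difference changed between 0 h and 24 h (an interaction in the limma fit) picked out 3 of the named genes. Irf4, a transcription factor of lymphocytes and plasma cells, had a difference of 1.55 points at 0 h and 44.3 at 24 h, a change of 42.74 points (SE 2.81, adjusted p = 0.000124). Its ranks at 0 h were 25.03 and 28.9 in tumour, against 26.5, 25.4 and 24.3 in kidney, all below the middle of the array. Olfr1396, an odorant receptor gene, had differences of -41.9 at 0 h and -12.9 at 24 h, a change of 29.06 points (SE 2.14, adjusted p = 0.000187). Tgfb3 had differences of -32.5 at 0 h and -7.34 at 24 h, a change of 25.20 points (SE 3.14, adjusted p = 0.0130).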

How the results depend on the processing

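The number of genes past the test at 0 h, 955, was 587 (279 higher, 308 lower) when the 5 arrays of 0 h were fitted alone. Leaving out each array in turn gave 473 to 942 at 0 h, with 473 (226 higher, 247 lower) without tumour replicate 1 and 269 higher and 289 lower without tumour replicate 2, and 666 to 1114 at 24 h. The labels do not say whether equal replicate numbers mark a shared host. With the replicate block 932 genes passed at 0 h (477 higher, 455 lower). With the brightest probe set of each gene, 647 genes passed (268 higher, 379 lower). List members past the test then numbered 67 (16 higher, 51 lower) in place of 114 (52 and 62). The direction of Xcl1 (1.33), Rrm2 (-2.76), Plxdc1 (34.5), Col4a3 (1.65) and Papln (1.57) was reversed with the brightest probe set. Of 104 named genes past the test, 46 passed under every alternative that tested them, of which 35 were among the 71 that the filter on rank kept, and 72 whichever array was left out; of the lists counted, an alternative added after seeing the data, interferon falls rose to 9 on the log2 scales and in normal scores, and rises in cell division fell to 1 with a filter on rank, which keeps 2 of its genes. The cause of these changes was not tested. The limits are 2 tumour arrays, a tissue difference that cannot be told apart from the separate normalization of the sets, and genes below rank 50, which may be near background.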

Other observations

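Several further gene groups were picked out after their values were seen, so their counts are descriptions. Ligands of NKG2D, the activating receptor of NK cells, ranked higher in tumour endothelium in 3 of 4 cases: besides Raet1e, Ulbp1 had ranks of 71.6 and 66.5 in tumour, against 52.2, 41.0 and 43.3 in kidney (23.5 ± 3.97, adjusted p = 0.00241), and H60b 47.1 and 52.4 in tumour, against 26.3, 32.5 and 24.0 in kidney (22.2 ± 3.33). H60c did not pass (1.03 points). Signalling genes better known from leukocytes were higher as well. Lcp2, the adaptor SLP-76, stood at 81.0 and 84.3 in tumour and 61.1, 46.1 and 48.1 in kidney (30.9 ± 3.70), and the kinase gene Syk at 58.1 and 57.2 in tumour and 29.7, 28.5 and 32.4 in kidney (27.4 ± 1.85, adjusted p = 7.83e-06). Both were also high in MCA313, with means of 81.0 and 56.3. The part of leukocyte RNA in these values was not tested.

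Enzymes of sphingosine-1-phosphate and eicosanoid metabolism were lower in tumour in 6 of 12 cases. Sgpp1, a sphingosine-1-phosphate phosphatase like Sgpp2, had ranks of 46.6 and 45.9 in tumour and 71.5, 69.7 and 71.9 in kidney (-24.8 ± 2.25, adjusted p = 5.2e-05). Pla2g4a, the cytosolic phospholipase that frees arachidonic acid, stood at 37.0 and 38.7 in tumour, against 62.4, 70.1 and 71.4 in kidney (-30.1 ± 2.62, adjusted p = 4.11e-05). Gpr182, a scavenger receptor of sinusoidal endothelium, ranked 53.8 and 51.9 in tumour and 79.7, 80.5 and 80.4 in kidney (-27.3 ± 2.14), and Prox1, the regulator of lymphatic fate, 21.6 and 27.8 in tumour and 55.9, 45.7 and 38.9 in kidney (-22.1 ± 4.26, adjusted p = 0.00516, and 0.0632 without tumour replicate 1).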
